A study of Homo sapiens with 22 samples.

Results

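PER1, PER2, PER3, CRY1 and CRY2 encode the repressors of the circadian clock, and their gene loci were examined for binding of the activators BMAL1 and CLOCK by chromatin immunoprecipitation followed by sequencing (ChIP-seq). The cells were THP-1, a human monocytic leukaemia line that carries the MLL-AF9 fusion. A listed peak was assigned to a gene when its midpoint fell inside the gene body or within 10 kb of either end. This rule found 7 of the 9584 listed BMAL1 peaks, 5 of the 269 listed CLOCK peaks, and 5 of the 140 regions that the authors' deposited table gives as common to both factors.

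The series has 22 libraries, of which 7 are from THP-1 cells and 15 from NOMO-1, another MLL-AF9 line. Peak lists of 2 libraries were used, 1 for BMAL1 and 1 for CLOCK, both from THP-1 cells, with no treatment named in the library titles. Chromatin of both was fixed with 2 mM of the protein crosslinker ethylene glycol bis(succinimidyl succinate), known as EGS, for 30 minutes and then with 1% formaldehyde for 30 minutes. The other 20 libraries, among them the IgG and input controls, were not analysed here. THP-1 is a single established line, and the time of collection within the circadian cycle is not given in the sources used here. With 1 library per factor, no value below has a replicate error and no test was made. A peak list alone cannot check the cell identity. All gene and peak positions are on build hg19.

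BMAL1 and CLOCK pair through their PAS domains and bind E-box elements in DNA. Among their targets are the Per and Cry genes, whose protein products form complexes that enter the nucleus and repress BMAL1 and CLOCK. This delayed negative feedback, together with degradation of the repressors, gives the clock its rhythm of about a day. PER1 and PER2 are the scaffold proteins of the repressor complex, PER3 is a family member with a less central role, and CRY1 and CRY2 are the direct repressors of the activator pair.

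The promoter sequences of the members were searched for clock elements, since E-boxes are the sites through which BMAL1 and CLOCK reach these genes. Sequences are from RefSeq, build GRCh38.p14, and each covers 250 bases before to 50 after an annotated start. Searched on both strands were the E-box CACGTG, the related E-prime box (CACGTT or its reverse complement AACGTG), the D-box TTATGTAA (reverse complement TTACATAA) and the cAMP response element TGACGTCA. No pair of these overlapped at the members. The sites found are shown in 30 bases each, 5′ to 3′ on the strand of the gene, with the element in capitals.
PER1, E-box: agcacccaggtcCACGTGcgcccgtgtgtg
PER2, E-prime box: ggcgcgcgcggtCACGTTttccactatgtg
CRY1, E-prime box: acacacttcagaAACGTGaggtgccggtgg
CRY2, E-prime box: acacatggtaggAACGTGagggggcgggcc
PER3, D-box: gagcccgcgcgTTATGTAAcgcgccccggg

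The E-box of PER1 began 173 bases before the start of its promoter entry. The E-prime box of PER2 began 197 bases before its entry's start and that of CRY1 89 bases before. These starts were not aligned with the hg19 gene starts used for the peaks below and may differ from them. CRY2 has 2 promoter entries, 357 bases apart. Its E-prime box was found in the second, beginning 188 bases before that start and 169 bases after the first. PER3 also has 2 entries, 138 bases apart. The first held the D-box, which is the element bound by DBP, TEF, HLF and NFIL3, 177 bases before the start, and no E-box or E-prime box was found in either window. The cAMP response element was found at none of the 5 genes. Of the 27305 genes with a promoter entry, 8.77% had an E-box, 6.44% an E-prime box, 14.5% at least 1 of these, 1.13% the D-box and 2.25% the cAMP response element. Among the 24 other clock genes listed for this work, 19 had a promoter entry, of which 7 had an E-box, including CIART, BHLHE40 and TEF, and 3 had an E-prime box, namely CLOCK, CSNK1E and NR1D1. A match of letters is a description and does not show a bound site.

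For the 2 genes whose hg19 gene start was covered by a peak, the 250 bases upstream of a RefSeq promoter entry's start are shown. The entry's start was not aligned with the covered gene start and may differ from it. The CRY1 sequence is chr12:107093550-107093799 (GRCh38.p14, minus strand), with the E-prime box in capitals. The CRY2 sequence is chr11:45846868-45847117 (GRCh38.p14, plus strand), upstream of the first start, and held none of the elements searched. The E-prime box of CRY2 is in the second entry, which is not printed in full. Peak midpoints at both genes lay after the hg19 gene start, and neither sequence was shown to be the bound region.
CRY1: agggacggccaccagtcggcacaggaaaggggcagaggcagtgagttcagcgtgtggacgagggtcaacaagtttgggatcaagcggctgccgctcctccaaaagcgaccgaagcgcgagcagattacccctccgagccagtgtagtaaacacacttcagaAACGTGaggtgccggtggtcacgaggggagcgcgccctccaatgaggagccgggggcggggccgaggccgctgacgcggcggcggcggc
CRY2: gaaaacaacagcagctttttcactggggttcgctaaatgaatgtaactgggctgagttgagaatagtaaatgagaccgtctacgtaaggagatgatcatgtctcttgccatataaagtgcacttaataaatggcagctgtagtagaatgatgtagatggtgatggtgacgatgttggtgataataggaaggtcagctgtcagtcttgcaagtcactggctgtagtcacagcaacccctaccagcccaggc

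Peaks of both factors were listed at 4 of the 5 repressor loci: PER1, PER2, CRY1 and CRY2. PER3 had none from either list. To give the frequency of such windows, chromosomes 1 to 22 and X were divided into tiles of 66065 bp, the median width of the 5 windows. At least 1 BMAL1 peak lay in 15.9% of 44366 tiles, at least 1 CLOCK peak in 0.579%, and at least 1 CLOCK peak that overlapped a BMAL1 peak in 0.309%. The windows were 32.0 to 122 kb wide. Over tiles of these widths the share with a BMAL1 peak ran from 8.80 to 25.1%, and that with a CLOCK peak from 0.284 to 1.05%. Tiles cover genome without genes as well, so these shares describe the lists and are not those of gene windows.

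**Figure D1:**
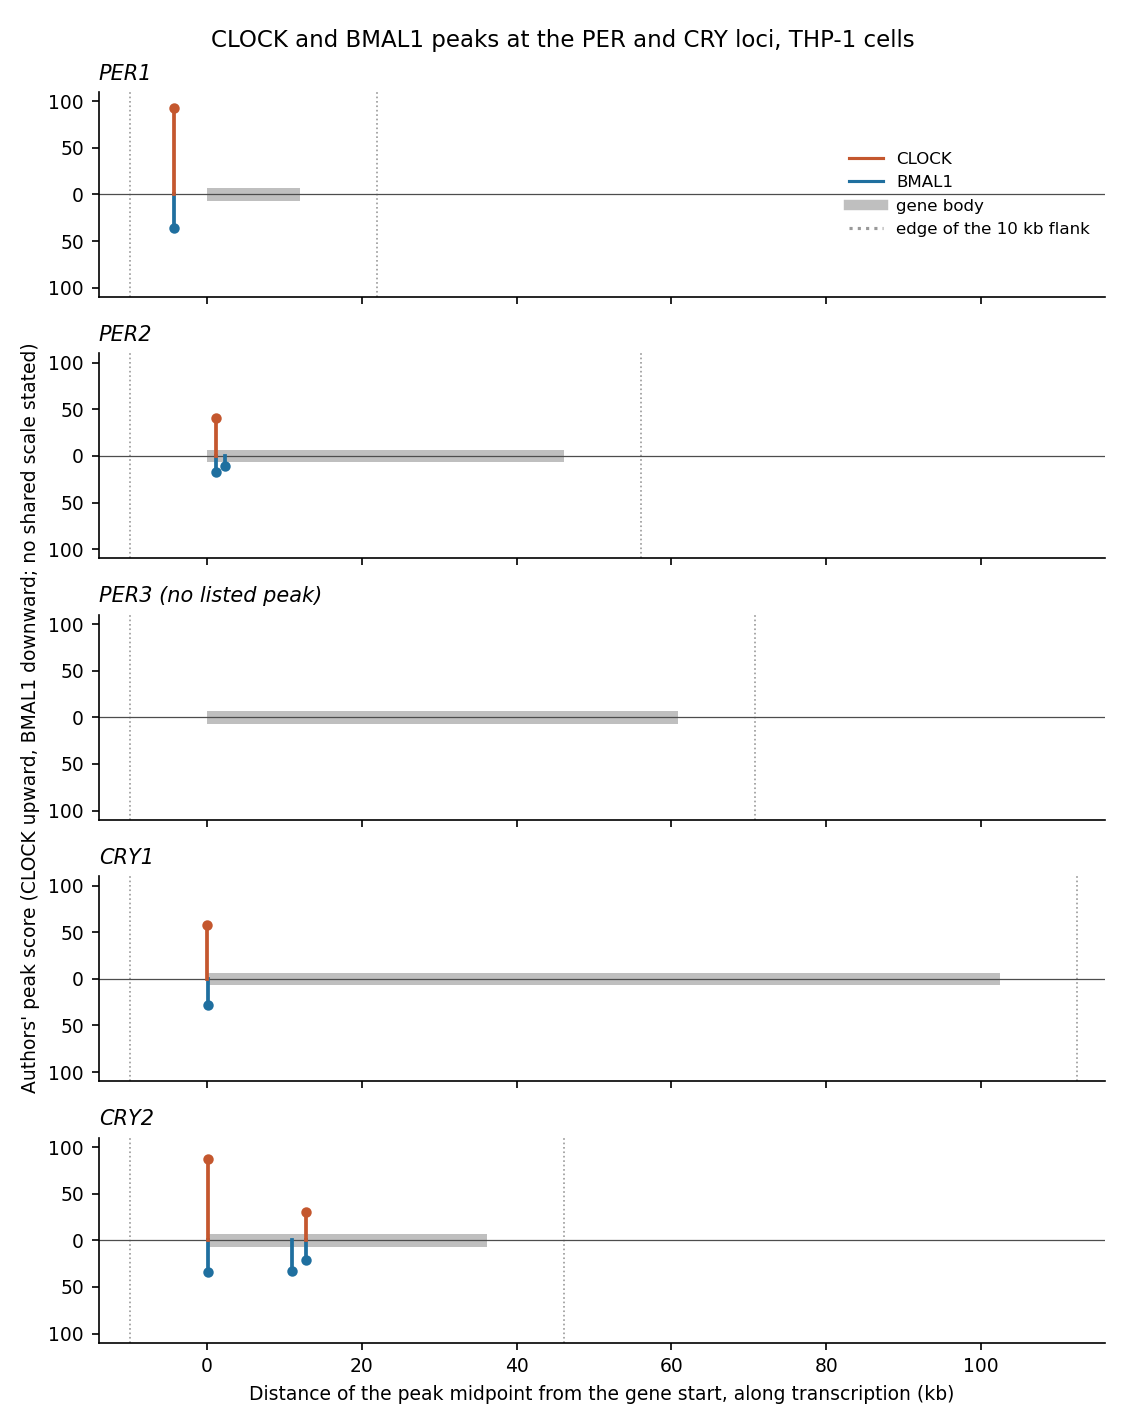
Listed CLOCK peaks (upward, orange) and BMAL1 peaks (downward, blue) at the 5 loci, at the distance of the midpoint from the gene start in kb (x axis) and with the authors' score as height (y axis). Gray bars are gene bodies and dotted lines the edges of the 10 kb flanks; CLOCK peaks stand over a BMAL1 peak at PER1, PER2, CRY1 and both CLOCK sites of CRY2, and PER3 is empty.

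Each listed peak carries a score, which is the authors' own value without a stated unit, and scores are compared here only within a list. The median score was 14.5 over all BMAL1 peaks (range 10 to 320.5) and 24 over all CLOCK peaks (range 18 to 169). The member peaks had medians of 28.5 for BMAL1 (n = 7) and 57.5 for CLOCK (n = 5).

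PER1 had the highest CLOCK and the highest BMAL1 score of the 5 loci. The gene lies at chr17:8043788-8055753 on the minus strand. Its CLOCK peak, chr17:8059760-8060292, scored 92.5 and was 8th of 269 in the list and the highest listed on chromosome 17. The BMAL1 peak, chr17:8059790-8060186, scored 36.5, rank 517 of 9584, so 94.4% of BMAL1 peaks scored lower. Neither peak covered the start of PER1. Their midpoints lay 4273 and 4235 bp upstream of it, outside the gene body, on the side of the next protein-coding gene in RefSeq order, VAMP2, which encodes a vesicle membrane protein. The E-box printed above is within 250 bases of a PER1 start, and the nearest listed BMAL1 midpoint was 4235 bp from the start used here. Peak sequences were not read, so whether an E-box lies under the PER1 peaks was not tested. Other annotated starts of PER1 on hg19 were not examined. Which gene this region serves was not tested. Within 500 kb of the PER1 start, no other CLOCK peak and 1 other BMAL1 peak were listed.

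At PER2, chr2:239152679-239198743 on the minus strand, the CLOCK peak stood higher in its list than the BMAL1 peak did, with 84.8% and 62.6% of the lists scoring lower. The CLOCK peak, chr2:239197325-239197857, scored 41, rank 41 of 269, and was the highest of the 8 listed on chromosome 2. The BMAL1 peak beneath it, chr2:239197407-239197803, scored 17, rank 3363 of 9584, above the list median of 14.5. Both midpoints lay inside the gene, 1152 and 1138 bp after the start. A second BMAL1 peak, chr2:239196207-239196603, followed 1200 bp farther into the gene. It scored 11, near the lowest listed score of 10, and overlapped no CLOCK peak. Other annotated starts of PER2 on hg19 were not examined, so the distance to the start in use in these cells is unknown. The E-prime box of PER2 printed above was placed relative to a promoter entry of another build. Whether it lies under any of these peaks was not tested. In the 500 kb on either side of the start, 11 BMAL1 peaks were listed, and the PER2 peaks were 4th and 8th among them by score.

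At CRY1, chr12:107385142-107487607 on the minus strand, both factors had a single peak over the gene start. CLOCK scored 57.5 at chr12:107487298-107487830, rank 20 of 269 and second among the 13 listed on chromosome 12. BMAL1 scored 28.5 at chr12:107487340-107487736, rank 981 of 9584, with 89.2% of the list lower. The midpoints were 43 and 69 bp after the start. The rest of the 102466 bp gene body and its flanks held no further listed peak, and within 500 kb of the start 1 other BMAL1 peak, with a higher score, was listed. The promoter sequence printed above is of another build than the peaks, so whether the E-prime box lies under the peak was not tested.

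CRY2, chr11:45868669-45904799 on the plus strand, had the most peaks, 3 for BMAL1 and 2 for CLOCK. One pair covered the gene start. Its CLOCK peak, chr11:45868573-45869105, scored 87, rank 9 of 269 and the highest listed on chromosome 11. Its BMAL1 peak, chr11:45868613-45869009, scored 33.5, rank 662 of 9584. These midpoints lay 170 and 142 bp after the start. In the RefSeq build, the E-prime box of CRY2 began 169 bases after the first promoter entry's start. That distance and those of the peaks come from 2 builds and were not aligned. Whether the box lies under these peaks was not tested.

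The other CRY2 peaks lay inside the gene. A second pair, CLOCK at chr11:45881133-45881665 with a score of 30.5 and BMAL1 at chr11:45881199-45881595 with 21, had midpoints 12730 and 12728 bp after the start. Both scores were lower than those of the pair at the start. Between the pairs, 11028 bp after the start, a BMAL1 peak at chr11:45879499-45879895 scored 33, almost the score at the start, and had no CLOCK peak listed over it. The nearest CLOCK midpoint was 1702 bp away, in the second pair. Of all BMAL1 peaks scoring 33 or more, 33 of 706 (4.67%) overlapped a CLOCK peak, so a BMAL1 peak of this score without CLOCK was the usual case. Of tiles as wide as the CRY2 window (56131 bp), 0.768% held 3 or more BMAL1 peaks and 6 of 52219 held 2 or more CLOCK peaks. Within 500 kb of the CRY2 start 10 BMAL1 peaks were listed, and the 3 in the gene had the highest scores.

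No peak of either factor was listed at PER3, chr1:7844380-7905237 on the plus strand. The nearest listed BMAL1 peak, chr1:7800511-7800907 with a score of 15, had its midpoint 43671 bp upstream of the gene start. It was the listed peak of either factor closest to any of the 5 windows without being in it. The nearest listed CLOCK peak lay 9296 kb beyond the far end of PER3 and had the lowest score in the list, 18. No CLOCK peak was listed on the other side of PER3. For the other 4 loci the nearest listed peaks outside the windows lay 73.9 to 803 kb (BMAL1) and 442 to 22764 kb (CLOCK) from the gene ends, with scores of 10 to 32 and 18 to 29. The member closest to the limit of 10 kb was the PER1 pair, 4273 and 4235 bp from the gene.

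The PER3 result rests on lists in which many peak numbers are absent. Peaks are numbered within each chromosome, and on the chromosomes of the 5 genes the score rose with the number in 0 of 3239 neighbouring BMAL1 pairs and 0 of 80 CLOCK pairs. What the missing numbers stand for is not given in the sources used here. On chromosome 1, which carries PER3, 57.8% of BMAL1 and 98.7% of CLOCK numbers were absent. On the chromosomes of the other 4 genes the shares were 18.1 to 24.0% and 60.4 to 92.9%. Sequencing depth is unknown as well, so an empty window does not show that PER3 was unbound.

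**Figure D2:**
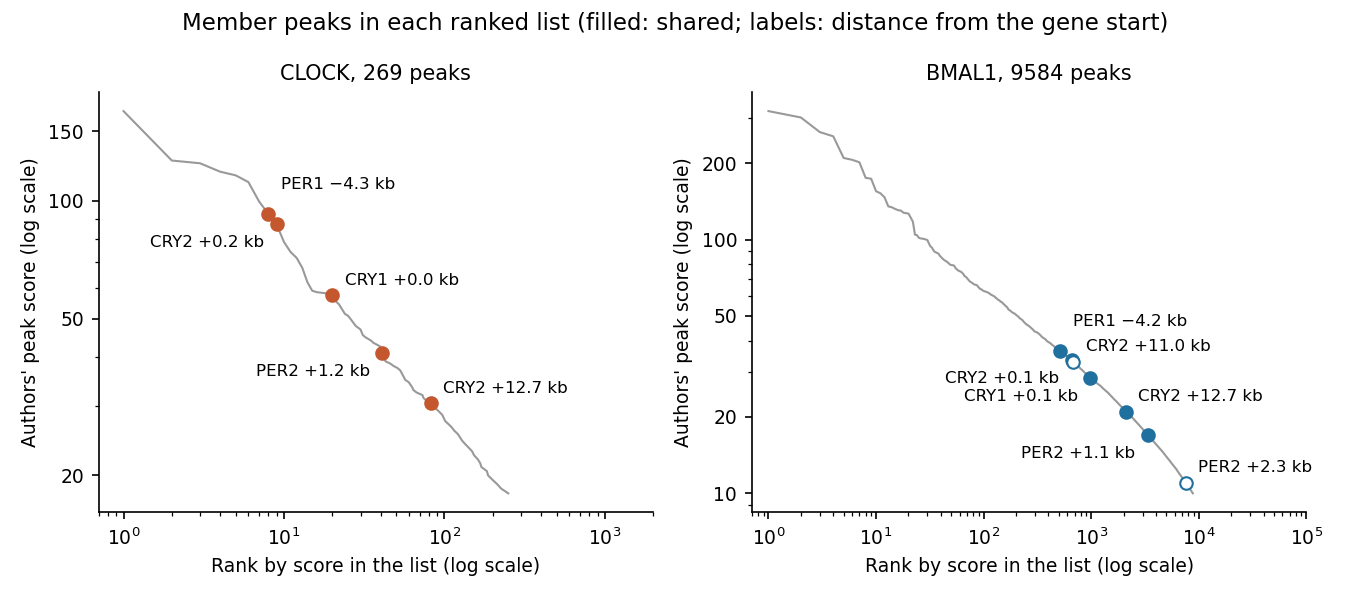
Authors' score (y axis, log scale) against rank in the list (x axis, log scale) for the 269 CLOCK peaks (left) and the 9584 BMAL1 peaks (right), drawn as gray lines, with the peaks at the PER and CRY loci as points labelled by gene and distance from its start. Filled points overlap a peak of the other factor; the PER1 peaks are the highest members in both panels, above 97.0% of CLOCK and 94.4% of BMAL1 peaks.

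Because the lists differ in length, the place of a site is given as the share of its list that scored lower. At PER1 the share was 97.0% for CLOCK and 94.4% for BMAL1, at the CRY2 start 96.7% and 92.9%, and at CRY1 92.6% and 89.2%. These 3 sites thus stood high in both lists. At PER2 the shares were 84.8% and 62.6%, and at the inner CRY2 pair 68.0% and 76.7%. Among CLOCK members 4 of 5 reached the upper quartile of their list (32.5), as did 26.8% of all CLOCK peaks, and the exception was the inner CRY2 peak. Among BMAL1 members 5 of 7 reached the upper quartile of theirs (20), as did 26.2% of all BMAL1 peaks, and the exceptions were both PER2 peaks. 

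All 5 CLOCK peaks at the repressor loci were shared, meaning an overlap of 1 bp or more with BMAL1 (exact Clopper-Pearson 95% interval 47.8 to 100%). Over the whole CLOCK list the share was 52% (140 of 269). It was larger among high scores. Of CLOCK peaks scoring 57.5 or more 18 of 20 were shared, and of those scoring 41 or more 29 of 41. With only 5 peaks the interval is wide, and whether these loci differ from the list was not tested. Seen from BMAL1, 5 of 7 member peaks overlapped a CLOCK peak (71.4%, exact 95% interval 29.0 to 96.3%), against 1.46% of all 9584. The length of the CLOCK list, 269 peaks, keeps the share over all BMAL1 peaks low whatever the loci. Of BMAL1 peaks scoring 33 or more, 4.67% overlapped a CLOCK peak. The intervals cover counting error only and treat peaks of 1 gene as separate, and 3 of the 7 belong to CRY2. The 2 BMAL1 members without CLOCK were the second PER2 peak and the CRY2 peak between the pairs. Each lay close to a shared BMAL1 peak, 1200 and 1700 bp away. With these partners, 4 of 7 members had another BMAL1 midpoint within 2000 bp, as did 4.50% of all BMAL1 peaks.

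The factors were closely aligned at each shared site. Midpoints of the CLOCK and BMAL1 peaks lay 38 bp apart at PER1, 14 bp at PER2, 26 bp at CRY1, 28 bp at the CRY2 start and 2 bp at the inner CRY2 site. The median of these 5 distances was 26 bp, and that of all 140 shared pairs was 50.5 bp with quartiles of 12 and 122.5 bp, so each of the 5 lay below that median. In all 5 pairs the whole BMAL1 peak of 397 bp fell inside the CLOCK peak of 533 bp, as in 80 of the 140 shared pairs (57.1%). Shared pairs elsewhere with still higher CLOCK scores, ranks 1 to 7, had distances of 11, 3, 8, 15, 18, 92 and 2 bp. In all of these but the pair at rank 6 the BMAL1 peak also fell inside. Close alignment was thus not particular to the repressor loci. In the authors' deposited table the common region was accordingly the full BMAL1 peak at each of the 5 sites, with the score of the CLOCK peak.

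**Figure D3:**
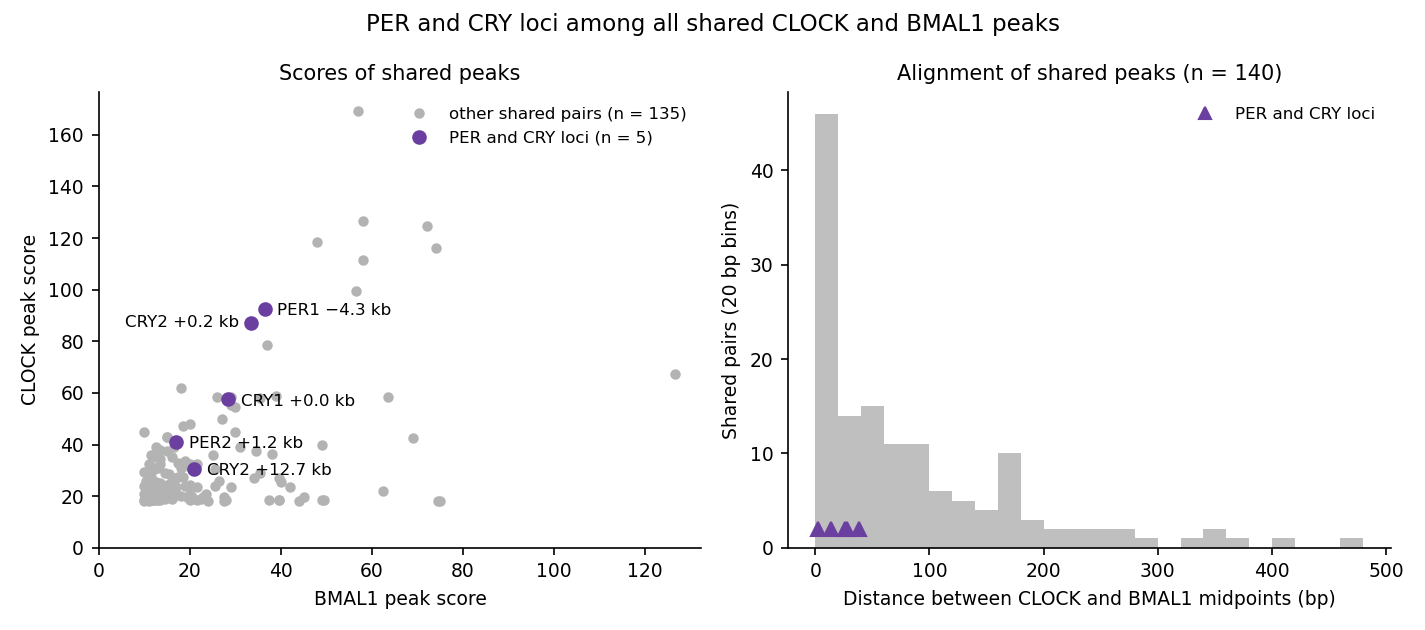
Left, CLOCK score against BMAL1 score for the 140 shared pairs, with the 5 pairs at the PER and CRY loci in purple and labelled by gene and distance of the CLOCK midpoint from its start. Right, histogram of the distance between the CLOCK and BMAL1 midpoints of the 140 pairs in bins of 20 bp, with the 5 repressor pairs as triangles between 2 and 38 bp.

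Among shared pairs, the CLOCK scores of the repressor sites ranked 8 (PER1), 9 (CRY2 start), 18 (CRY1), 29 (PER2) and 54 (inner CRY2) of 140. Their BMAL1 scores ranked 28, 33, 40, 75 and 57 in the same order. The order by CLOCK was thus the order by BMAL1 for the first 3 sites, and PER2 and the inner CRY2 site changed places. The median score of shared peaks was 25.5 for CLOCK and 18 for BMAL1, against 57.5 and 28.5 at the 5 repressor sites. With no replicates, the order of neighbouring sites such as PER1 and the CRY2 start has no error to be set against.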

How the data were processed

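ChIP-seq peak lists of 1 BMAL1 and 1 CLOCK library of THP-1 cells were used. The score of each peak is a deposited value, with no stated scale, threshold or control. HOMER is the caller per the file headers' source column. Per the submitters' processing notes, tools were HOMER 4.7.2, Bowtie 0.12.7, Picard and SAMtools 1.2 on hg19, without roles. Peaks were called per library, and the depth is unknown.

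Gene bodies were those given for this work on hg19. Transcription starts were taken as their outer ends, with strands from RefSeq. No genome or gene annotation of hg19 was used here, so peak sequences and windows of other clock genes were not examined. The members and lists were chosen with earlier results of these data known. All 5 genes and every member peak are named, while the nearest listed peaks beyond the windows are given by range, with the closest named. Shared peaks overlap by at least 1 bp. Intervals are exact Clopper-Pearson. Tiles run between the first and last BMAL1 peak of each chromosome. Promoters were matched by symbol, all 5 members and, with older symbols, 19 of 24 clock genes. Pairing of peaks was tested on simulated data with planted overlaps. Alternatives covered the flank, the score and the overlap rule. Software was scipy 1.17.1, pandas 2.3.3, numpy 2.4.6 and matplotlib 3.10.9 under Python 3.11.15.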

Additional observations from a re-analysis of the deposited data

How the results depend on the processing

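Of 48 alternatives to 6 counts, 47 stayed within 1.5 times the reported count. This limit is loose for small counts, since 3 or 5 loci in place of 4 stayed within it. Several settings, named below, could not have changed a count. Keeping only peaks at or above the upper quartile of their own list left 3 shared CLOCK peaks in place of 5, because the BMAL1 partner at PER2 (score 17) and the inner CLOCK peak of CRY2 (30.5) fell below their quartiles. With gene bodies alone the PER1 pair was lost, leaving 3 loci with peaks. Flanks of 5 and 20 kb changed no count and could not, as no listed midpoint lay between 4273 bp and 43.7 kb from a gene. A flank of 50 kb added the BMAL1 peak upstream of PER3, so that 5 of 5 loci had a BMAL1 peak and 4 a CLOCK peak. The other overlap rules, midpoints within 100 bp among them, kept 5 shared peaks. That was fixed in advance, since each BMAL1 peak lay wholly inside its CLOCK peak with midpoints 2 to 38 bp apart. Depth is unknown, and it limits what an empty window shows.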
